A study of Mus musculus with 6 samples.

Results

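H3K79me2 was examined over 9 genes that encode the H3K79 methyltransferase DOT1L, the proteins that bind it and the super elongation complex that shares some of these partners: Dot1l, Mllt10, Mllt6, Mllt1, Mllt3, Aff1, Aff4, Ell and Ell2. They were chosen by name, as 9 of the 55413 genes of GENCODE mouse release 21 on chromosomes 1 to 19, X and Y. For each gene, the peaks that touched the gene or the 3 kb before its start were collected. The libraries came from N2a cells, an established mouse neuroblastoma line, by chromatin immunoprecipitation with an H3K79me2 antibody followed by sequencing. The control cells (CTR) carried the plasmid pLKO.1 with a non-target short hairpin RNA. The NPM1 KD cells carried the same backbone with a hairpin against Npm1, the gene of the nucleolar phosphoprotein NPM1, which interacts with DOT1L. Both groups were selected with puromycin and collected after 3 days in vitro, with 2 libraries per group, and each replicate was a passage of its own with a transfection of its own. NPM1 was lowered by a single hairpin sequence, so that an effect of NPM1 loss and one of this hairpin cannot be told apart, and peak lists hold no RNA that would show the knockdown. In the study, immunoblots of these replicates showed decreased NPM1 protein.

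DOT1L places mono-, di- and trimethyl marks on lysine 79 of histone H3, in the globular part of the nucleosome, and H3K79me2 typically lies over the 5′ part of transcribed genes. MLLT10 (AF10) and MLLT6 (AF17) are related cofactors that bind DOT1L, and MLLT10 is needed for efficient dimethylation. MLLT1 (ENL) and MLLT3 (AF9) carry a YEATS domain that reads acylated lysines, and each can bind either DOT1L or an AFF scaffold. AFF1 (AF4) and AFF4 are the scaffolds of the super elongation complex, which joins the kinase P-TEFb to the elongation factors ELL or ELL2 and helps RNA polymerase II to leave pausing. Several of these genes are fusion partners of MLL (KMT2A) in leukaemia. A peak over one of the genes measures the mark on that gene and not the amount or the activity of its protein.

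A broad peak was present in all 4 libraries over 8 of the 9 genes, and Ell2 had neither a broad nor a narrow peak in any library. Among the 21938 protein-coding genes, 51.2% had a broad peak in all 4 libraries, 51.6% had a narrow one in all 4, and among all 55413 genes 30.8% had a broad one. The 8 genes were covered over 37.6% to 100% of their windows, whereas the median protein-coding gene with a peak in the same library was covered over 45.4% to 51.8%. The 8 genes with peaks could be tested for a difference between NPM1 KD and CTR in covered length and in the height of the strongest peak. In the length of the domain over the gene start, 5 of them could be tested. None passed, but few genes did so at all: 0.0266%, 0.139% and 3.00% of all genes fitted in the 3 measures. The line carried the mark over 7 of the 8 genes reported here that mark sympathetic neuroblastoma cells (Phox2a, Hand2, Gata2, Gata3, Isl1, Th and Chga, with none over Dbh) and over 0 of 6 marker genes of blood, liver, muscle, epithelium and endothelium. At Th the peaks covered only 0.87 to 4.08 kb of the window, at most 9.87% of it, with a strongest fold of 1.88 to 2.66. The Hand2 window held no narrow summit of its own. It lay inside a broad peak of 69.4 to 71.8 kb, and the strongest summit was 19.96 to 20.01 kb after the gene start, outside the window.

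Depth enters each value below. The total number of reads was not analysed here. MACS2 set a single background per library, which as a fragment pileup was 11.9 and 7.65 in the CTR libraries and 8.99 and 11.8 in the NPM1 KD libraries (replicate 1 first, here and below). CTR 1 and NPM1 KD 2 were thus the libraries of higher background. A fold is relative to the background of its own library, so that it does not show a change in the total amount of the mark. In the study's immunoblots of these replicates, H3K79me2 was increased after NPM1 KD. The lists held 34845 to 48764 broad and 73801 to 88348 narrow peaks, with the fewest of both in CTR 2. With 2 libraries against 2, an exact permutation test cannot give a p under 0.333, so that a single value cannot reach 0.05 and the tests below rest on limma fits over all genes.

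The promoters of the genes differed in their CpG content, and those that the results turn on are shown first. RefSeq sequences on GRCm38.p6 run from 250 bases before to 50 bases after an annotated transcript start. All 9 genes had at least 1, and the 9 genes had 13 promoters in all. The CG dinucleotides are in capitals. Dot1l is shown for its CpG density and for the high peak next to it, Mllt10 and Aff1 because the mark was strongest after an internal start, and Ell2 because it carried no peak.
Dot1l, chr10:80754953-80755252, plus strand: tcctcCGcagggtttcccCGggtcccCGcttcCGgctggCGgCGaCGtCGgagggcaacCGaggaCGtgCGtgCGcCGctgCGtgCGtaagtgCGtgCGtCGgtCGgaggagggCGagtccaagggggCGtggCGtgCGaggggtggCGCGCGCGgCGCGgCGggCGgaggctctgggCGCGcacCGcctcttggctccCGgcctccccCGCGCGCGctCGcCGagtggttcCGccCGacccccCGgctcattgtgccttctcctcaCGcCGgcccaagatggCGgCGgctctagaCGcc
Mllt10 at the gene start, chr2:18054987-18055286, plus strand: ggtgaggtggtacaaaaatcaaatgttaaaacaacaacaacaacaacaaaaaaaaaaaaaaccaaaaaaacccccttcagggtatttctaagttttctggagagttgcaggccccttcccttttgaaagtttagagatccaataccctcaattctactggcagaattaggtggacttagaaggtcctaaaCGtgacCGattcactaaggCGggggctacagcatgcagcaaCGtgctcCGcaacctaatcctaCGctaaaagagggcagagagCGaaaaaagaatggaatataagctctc
Mllt10 at the internal start, chr2:18064335-18064634, plus strand: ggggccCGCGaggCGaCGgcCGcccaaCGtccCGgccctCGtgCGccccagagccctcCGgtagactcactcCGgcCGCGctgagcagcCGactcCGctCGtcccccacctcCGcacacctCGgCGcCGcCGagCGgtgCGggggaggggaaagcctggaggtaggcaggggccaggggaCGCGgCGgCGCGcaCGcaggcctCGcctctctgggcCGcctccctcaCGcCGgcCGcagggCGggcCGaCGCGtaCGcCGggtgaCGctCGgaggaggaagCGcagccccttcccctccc
Aff1 at the internal start, chr5:103753912-103754211, plus strand: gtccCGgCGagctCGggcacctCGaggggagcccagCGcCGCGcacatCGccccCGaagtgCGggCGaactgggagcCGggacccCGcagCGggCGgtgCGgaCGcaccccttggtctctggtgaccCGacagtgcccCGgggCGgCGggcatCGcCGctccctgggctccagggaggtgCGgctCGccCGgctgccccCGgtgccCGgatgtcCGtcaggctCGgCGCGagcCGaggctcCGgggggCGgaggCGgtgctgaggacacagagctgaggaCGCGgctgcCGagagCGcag
Ell2, chr13:75707234-75707533, plus strand: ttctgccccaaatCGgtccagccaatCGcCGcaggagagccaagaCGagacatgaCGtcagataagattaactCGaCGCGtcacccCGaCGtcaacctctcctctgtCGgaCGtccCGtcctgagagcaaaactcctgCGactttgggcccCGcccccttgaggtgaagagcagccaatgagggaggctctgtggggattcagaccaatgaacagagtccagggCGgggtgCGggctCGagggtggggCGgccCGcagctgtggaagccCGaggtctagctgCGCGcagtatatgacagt

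The Dot1l sequence held 49 CG dinucleotides at a GC content of 76.3%, against medians of 14 and 57% over 20145 promoters of protein-coding genes. The first Mllt10 promoter held 7 CG dinucleotides and that of the internal start, 9.35 kb further into the gene, held 43. The Aff1 promoter at 61.8 kb held 40. The Ell2 promoter held 23, the 71.0th percentile of these promoters, and its GC content was 61.3%. Ell2 thus had no called peak, and its promoter held more CG dinucleotides than the median. The GC box GGGCGG, counted on both strands, occurred in 47.8% of the promoters of protein-coding genes and in 3 copies at Ell2 and 2 at Dot1l. CCAAT occurred in 37.8% of them, in 3 copies at Ell2 and in 0 at Dot1l. TATAAA occurred in 12.2% of them and in none of the 13 promoters shown or counted here. Broad peaks spanned all 300 bases of the Dot1l, Mllt10, Mllt6 and Aff4 promoters in each of the 4 libraries. Among the promoters of protein-coding genes, 21.9% to 28.2% were spanned in full and 59.4% to 65.7% not at all. The peaks spanned 0 bases at both Mllt3 promoters and at Ell2 in each library, and 41% to 61.7% of the Ell promoter. At Mllt1 they spanned 100% and 26% in CTR and 100% and 30.3% in NPM1 KD. At Aff1 they spanned both promoters in full except for 72.3% of the first in CTR 2.

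**Figure D1:**
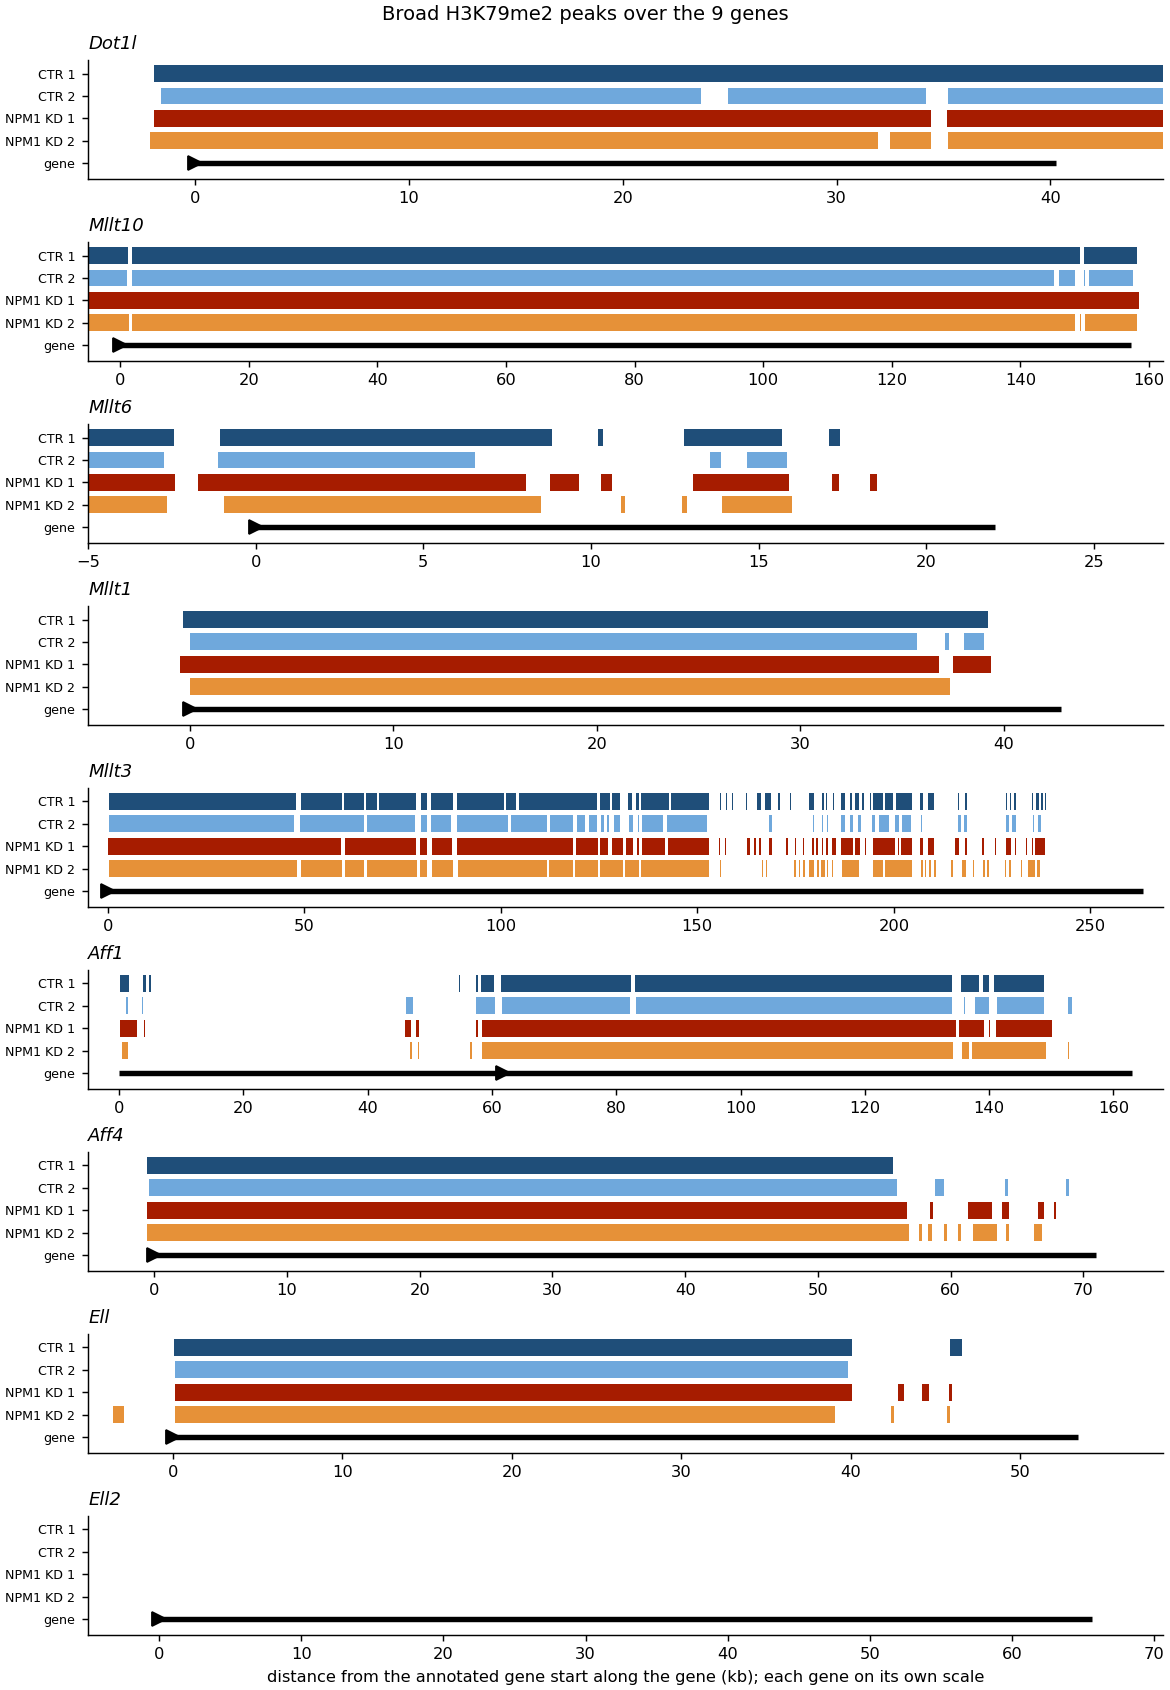
Broad H3K79me2 peaks over the 9 genes by distance from the annotated gene start (kb, each gene on its own scale), with 1 row of bars per library and the gene as a black line whose arrow marks the first protein-coding transcript start. Dot1l and Mllt10 were covered almost throughout, Ell and Aff4 lost the mark before their 3′ ends, Mllt3 was split into 35 to 48 peaks, and Ell2 was empty.

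The genes were ordered by the share of the window under broad peaks, from Mllt10 (98.9% as the mean of 4 libraries) through Dot1l (94.9%), Mllt1 (83.5%), Aff4 (79.4%), Ell (71.2%), Mllt3 (61.5%), Aff1 (54.3%) and Mllt6 (50.2%) to Ell2 (0%). The ranges over the 4 libraries did not overlap between Mllt10 and Dot1l, Dot1l and Mllt1, Aff4 and Ell, Ell and Mllt3, or Mllt6 and Ell2. They overlapped between Mllt1 and Aff4, Mllt3 and Aff1, and Aff1 and Mllt6. Within the libraries, Mllt3 was above Aff1 in 4 of 4, Mllt1 above Aff4 in 3 and Aff1 above Mllt6 in 2. By the fold of the strongest narrow peak with its summit in the window, the order was Dot1l (mean of 42.0), Mllt10 and Ell (both 29.4), Aff4 (24.6), Mllt1 (21.3), Aff1 (19.8), Mllt6 (19.7) and Mllt3 (11.7). Here the ranges were apart only between Dot1l and Mllt10 and between Mllt6 and Mllt3, although Ell was above Aff4 and Aff4 above Mllt1 in 4 of 4 libraries. Both orders compare windows of unequal length, from 25.05 kb at Mllt6 to 266.4 kb at Mllt3. The peaks and folds rest on a single background per library, so that local differences such as gene copy number were not corrected.

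**Figure D2:**
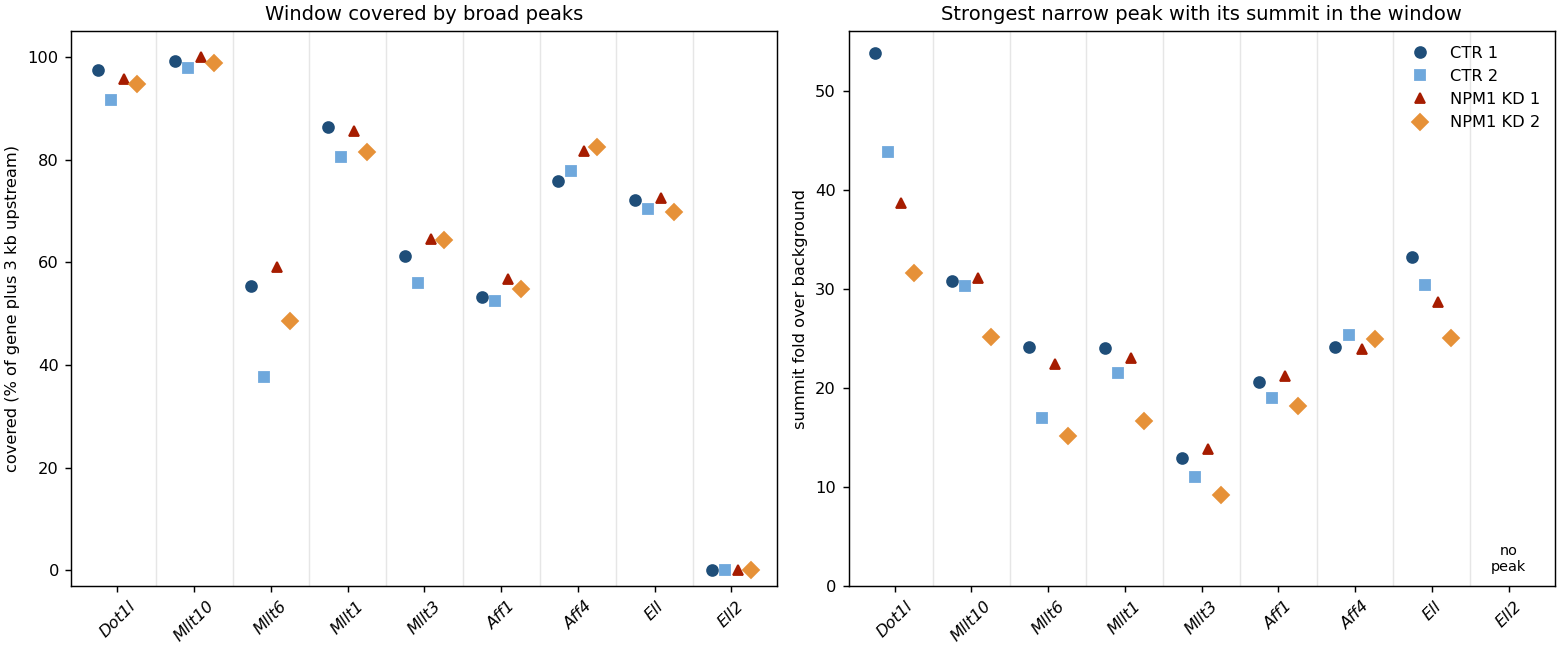
Left, percent of each window (gene body plus 3 kb upstream) under broad peaks. Right, fold over background at the strongest narrow summit inside the window. Each symbol is 1 library (circles and squares CTR, triangles and diamonds NPM1 KD). The Dot1l folds of 31.6 and 38.8 in NPM1 KD lay below those of 43.8 and 53.9 in CTR, and the covered shares of Mllt3, Aff1 and Aff4 were higher in both NPM1 KD libraries.

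Dot1l, the gene of the methyltransferase itself (ENSMUSG00000061589.14, chr10:80755206-80795461, plus strand), was among the most strongly marked genes. Its window was covered to 97.5% and 91.6% in CTR and to 95.8% and 94.8% in NPM1 KD. The strongest summit in the window reached a fold of 53.9, 43.8, 38.8 and 31.6 over background in CTR 1, CTR 2, NPM1 KD 1 and NPM1 KD 2. These folds ranked Dot1l at the 97.9th to 99.4th percentile of protein-coding genes, when in NPM1 KD 2 the slightly higher summit just outside the window is taken. They correspond to 693, 378, 386 and 403 stacked fragments, and the 95% Poisson interval, which covers counting error only, runs from 642 to 747 for the first and from 341 to 418 for the second.

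Both NPM1 KD libraries lay below both CTR libraries in the fold at Dot1l, and the CTR mean of 48.8 ± 7.09 compared with 35.2 ± 5.05 for NPM1 KD (SD, n = 2). Non-overlapping folds with NPM1 KD lower occurred at 28.9% of the 17231 genes with a narrow peak in all 4 libraries, and with NPM1 KD higher at 10.0%. The log2 change was -0.47 with a standard error of 0.18, and it did not pass the test (limma, adjusted p = 0.779, with 0.139% of the genes called). Between libraries of the same number it was -0.47 in both pairs, and with the replicate number as a block the standard error was 0.15 (limma, adjusted p = 0.442). Over all genes, the change varied with height. The median log2 change was 0.03 for the 3884 protein-coding genes with a geometric mean fold under 10, -0.17 for the 2310 genes between 20 and 30 and -0.32 for the 315 genes of 40 or more, which include Dot1l at 41.3. In the last range, 59.4% of the genes had both NPM1 KD libraries below both CTR libraries, and 9.84% had a lower change than Dot1l. The part that this trend takes in the lower Dot1l fold was not tested. From read counts of these libraries, the study lists Dot1l with lower H3K79me2 in NPM1 KD (DiffBind, FDR under 0.05). Its ChIP-qPCR found H3K79me2 increased at the Dot1l promoter. Both measures differ from the peak fold used here.

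**Figure D3:**
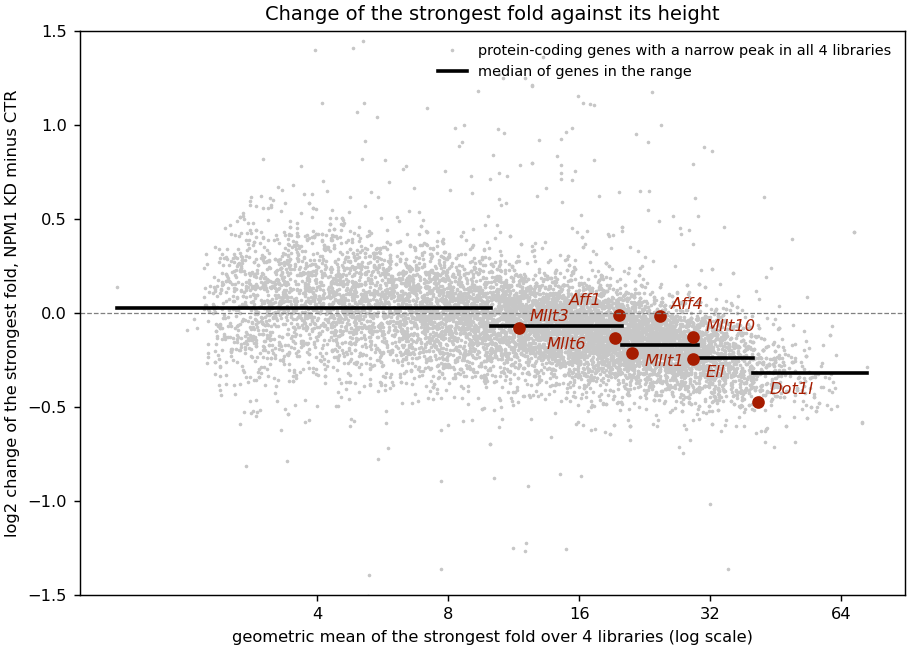
Log2 change of the strongest narrow fold (NPM1 KD minus CTR) against the geometric mean of that fold over the 4 libraries (log scale). Grey points are the 11314 protein-coding genes with a narrow peak in all 4 libraries (30 lie beyond the axis limits), black bars are the medians within ranges of height, and red points are the 8 genes with peaks. The medians fall from 0.03 to -0.32 as the height rises, with Dot1l at -0.47 in the highest range.

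The summit sat 0.43 kb after the annotated start of Dot1l in CTR 1, 1.04 kb after it in CTR 2 and 0.58 kb after it in NPM1 KD 1. In NPM1 KD 2 it lay at 5.86 kb, still under the same broad domain. The domain began 1.61 to 2.09 kb before the start in every library. It ran without a break to 50.1 kb in CTR 1, past the 3′ end of the 40.3-kb gene, and was interrupted after 23.7 kb in CTR 2, 34.4 kb in NPM1 KD 1 and 31.96 kb in NPM1 KD 2. A break between about 34 and 35 kb was common to CTR 2, NPM1 KD 1 and NPM1 KD 2. Beyond the 3′ end lies Sf3a2, a splicing factor gene on the same strand that starts 43.0 kb after the Dot1l start. In CTR 2, NPM1 KD 1 and NPM1 KD 2 a separate peak ran over both the 3′ end of Dot1l and the Sf3a2 start. It began 35.1 to 35.2 kb after the Dot1l start and ended at 50.1 to 53.1 kb. A mark in this stretch cannot be assigned to either gene. A summit at 44.5 kb, after the Sf3a2 start, had a fold of 31.7 in NPM1 KD 2 and narrowly exceeded the one inside the Dot1l window. The folds printed here are of summits inside the windows, whereas the test took any peak that touched a window, and with either choice the log2 change at Dot1l rounded to -0.47. The genes whose 8 values (covered share and strongest fold in the 4 libraries) were nearest to those of Dot1l were Foxk1, Vegfa and Tbpl1, at Euclidean distances of 0.234, 0.262 and 0.268 in units of the standard deviation over 11314 genes. The folds of each library entered this choice, so that their likeness to Dot1l is fixed by it. At Foxk1 they were 48.6 and 39.8 in CTR and 38.4 and 30.1 in NPM1 KD.

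Mllt10, which encodes the DOT1L cofactor AF10 (ENSMUSG00000026743.16, chr2:18055237-18212388, plus strand), was covered to 99.2% and 97.8% in CTR and to 100% and 98.7% in NPM1 KD. It is 157.2 kb long, so the mark reached the 3′ end of a long gene. The fold at its strongest summit was 30.8 and 30.3 in CTR and 31.1 and 25.2 in NPM1 KD, with 3 libraries close together and NPM1 KD 2 lower. This summit lay 10.5 to 11.1 kb after the gene start, that is 0.90 to 1.48 kb after the nearest annotated transcript start before it. The CpG-rich promoter printed above stands close to this internal start, while the start at the 5′ end of the gene has the CpG-poor one. A gap near the gene start separated a peak of 17.2 to 19.9 kb, which reached upstream of the gene, from one of 143 to 147 kb over the gene in CTR 1, CTR 2 and NPM1 KD 2. In NPM1 KD 1 the gap was bridged and both formed a single peak of 176.8 kb. The gap was 0.66 kb wide in CTR 1, 0.73 kb in CTR 2 and 0.53 kb in NPM1 KD 2. Hence the length of the domain over the start read 17.8 and 17.2 kb in CTR and 176.8 and 19.9 kb in NPM1 KD, and its log2 change of 1.76 had a standard error of 1.33 (limma, adjusted p = 0.676). After peaks within 1 kb of each other were joined, the change was 0.12. On the opposite strand the noncoding gene 1810059C17Rik starts 1.38 kb after the Mllt10 start, and the last 16.7 kb of Mllt10 overlap the 3′ part of Dnajc1, a protein-coding gene. A mark in these stretches cannot be assigned to either gene.

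Mllt6, the gene of the related cofactor AF17 (ENSMUSG00000038437.11, chr11:97663414-97685463, plus strand), is 22.05 kb long and carried a short domain. It was covered to 55.4% and 37.6% in CTR and to 59.2% and 48.6% in NPM1 KD, the widest spread among the 9 genes, and the groups overlapped. The main peak began 0.96 to 1.71 kb before the start and ended at 8.85 and 6.55 kb in CTR and at 8.06 and 8.50 kb in NPM1 KD. The fold at the summit, 0.37 to 0.62 kb after the start, was 24.1 and 17.0 in CTR and 22.4 and 15.2 in NPM1 KD. Of the 2 DOT1L cofactors, Mllt10 was thus covered over at least 97.8% of its window and Mllt6 mainly at its 5′ end.

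Mllt1, which encodes the YEATS reader ENL (ENSMUSG00000024212.9, chr17:56892611-56935415, minus strand), was covered to 86.4% and 80.6% in CTR and to 85.6% and 81.6% in NPM1 KD. Its domain began 0.001 to 0.50 kb before the start and ran, with peaks within 1 kb joined, to between 35.7 and 39.4 kb of the 42.8-kb gene. The fold at the summit was 24.1 and 21.5 in CTR and 23.0 and 16.7 in NPM1 KD, at 0.29 to 0.44 kb after the start. The groups overlapped in both measures.

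Mllt3, which encodes the paralogous reader AF9 (ENSMUSG00000028496.17, chr4:87769925-88033364, minus strand), is the longest of the genes at 263.4 kb and had the lowest fold of the marked ones. The fold was 13.0 and 10.99 in CTR and 13.8 and 9.23 in NPM1 KD, at 1.42 to 1.51 kb after the start. Between 35 and 48 broad peaks lay in its window. A nearly continuous series ran from 0.11 to 0.35 kb after the start up to an edge that lay within 0.49 kb in all 4 libraries, at 152.9 and 152.5 kb in CTR and at 152.95 and 152.9 kb in NPM1 KD. Short, scattered peaks followed. The covered share was 61.3% and 56.0% in CTR and 64.6% and 64.3% in NPM1 KD, higher in both NPM1 KD libraries. The log2 change in covered length was 0.14 ± 0.06 (SE), and it did not pass the test (limma, adjusted p = 0.490).

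Over the gene, the mark began downstream of the annotated start at Mllt3, Aff1 and Ell, which had no broad peak over that position in any library. A separate peak of 0.64 kb lay before the Ell start, from -3.54 to -2.90 kb, in NPM1 KD 2. Among protein-coding genes with a broad peak in all 4 libraries, 35.5% likewise had none over their start in any library and 43.4% had one in all 4. The remaining 5 marked genes (Dot1l, Mllt10, Mllt6, Mllt1 and Aff4) had one in all 4.

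Aff1, a scaffold of the super elongation complex (ENSMUSG00000029313.18, chr5:103692374-103855322, plus strand), was covered to 53.2% and 52.4% in CTR and to 56.7% and 54.8% in NPM1 KD. The annotated gene start belongs to a transcript that does not encode the protein, and the first protein-coding transcript starts 61.8 kb further on. Counted from there with 3 kb upstream, the covered share was 81.9% and 80.7% in CTR and 85.5% and 84.9% in NPM1 KD. The continuous mark began 61.4 and 61.6 kb after the gene start in CTR and at 58.3 and 58.4 kb in NPM1 KD, next to the internal promoter printed above. Only short peaks of low fold lay before it. In CTR these included a peak from 58.3 to 60.3 kb in CTR 1 and one from 57.5 to 60.5 kb in CTR 2. Gaps of 1.14 kb parted them from the domain, and in NPM1 KD this stretch was bridged. Its strongest summit was at 70.5 kb in every library, 8.30 to 8.33 kb after the nearest annotated start, with folds of 20.6 and 18.96 in CTR and of 21.2 and 18.2 in NPM1 KD. In CTR the domain was split by a gap at about 82 to 83 kb into peaks of 20.9 and 51.0 kb in CTR 1 and of 20.6 and 51.0 kb in CTR 2. In both NPM1 KD libraries it was a single peak, of 76.3 kb and 75.8 kb. The highest fold averaged over a broad peak was taken over a longer stretch in NPM1 KD, and read 10.2 and 9.94 in CTR against 6.47 and 6.25 in NPM1 KD (limma on the broad lists, log2 change -0.66 ± 0.06 SE, adjusted p = 0.0545), while the fold at the summit overlapped between the groups.

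Aff4, the other scaffold (ENSMUSG00000049470.13, chr11:53350833-53421830, plus strand), was covered to 75.9% and 77.7% in CTR and to 81.6% and 82.4% in NPM1 KD. The main domain ran from 0.41 to 0.57 kb before the start to 55.6 and 55.9 kb in CTR and to 56.7 and 56.8 kb in NPM1 KD, out of 71.0 kb. Small peaks of low fold, 1.71 to 2.08, followed in 3 libraries. The covered share of the last of 4 equal segments of the gene was 13.5% and 21.8% in CTR and 37.2% and 40.4% in NPM1 KD. The median of that segment over protein-coding genes with a broad peak in all 4 libraries was 6.95% and 1.40% in CTR and 13.3% and 8.01% in NPM1 KD. Among the 9 genes Aff4 had the smallest adjusted p for covered length (log2 change 0.09 ± 0.02 SE, limma, adjusted p = 0.30), which did not pass. The fold at the summit was 24.1 and 25.3 in CTR and 23.9 and 25.0 in NPM1 KD, so the strongest part of the mark overlapped between the groups. Its place varied, at 4.14 and 4.18 kb after the start in CTR and at 1.27 and 1.89 kb in NPM1 KD.

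Ell, which encodes the elongation factor ELL (ENSMUSG00000070002.7, chr8:70539457-70592858, plus strand), carried a domain of 38.9 to 39.97 kb that began 0.08 to 0.15 kb after the start and ended between 39.1 and 40.1 kb of the 53.4-kb gene. The covered share was 72.1% and 70.4% in CTR and 72.5% and 69.9% in NPM1 KD. The fold was 33.2 and 30.4 in CTR and 28.7 and 25.0 in NPM1 KD, lower in both NPM1 KD libraries, at 0.89 to 1.32 kb after the start. Its log2 change of -0.24 ± 0.15 (SE) did not pass the test (limma, adjusted p = 0.779), and 44.3% of the protein-coding genes of its range of height had non-overlapping folds in the same direction.

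Ell2, the gene of the paralogous elongation factor ELL2 (ENSMUSG00000001542.7, chr13:75706757-75772364, plus strand), had 0 peaks of either kind in CTR 1, CTR 2, NPM1 KD 1 and NPM1 KD 2. The nearest broad peak lay 68.3 to 68.7 kb downstream of the window in each library. The lists hold only regions above the threshold of the caller, so that a mark below it cannot be seen and no upper limit can be given. Of the pair of ELL genes, only Ell was therefore marked in these lists.

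At Mllt6, Mllt1, Mllt3, Aff1, Aff4 and Ell, more of the 5′ part than of the 3′ part was covered in every library. When each gene was divided into 4 equal segments from its first protein-coding transcript start, the 8 marked genes were covered to at least 95.8% in the first segment in every library. In the last segment the covered share ranged from 0% to 7.38% at Mllt6, from 0% to 7.22% at Ell, from 14.04% to 23.1% at Mllt3, from 13.5% to 40.4% at Aff4, from 38.5% to 46.1% at Aff1, from 44.9% to 66.7% at Mllt1, from 86.5% to 100% at Dot1l and from 92.8% to 100% at Mllt10. The median over protein-coding genes with a broad peak in all 4 libraries was 95.5% to 99.4% in the first segment and 1.40% to 13.3% in the last. Ell2 was at 0% throughout. Part of the last Dot1l segment lay under a peak that also covered the Sf3a2 start, and part of the last Mllt10 segment overlapped Dnajc1. These shares therefore cannot be assigned to Dot1l and Mllt10 alone.

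**Figure D4:**
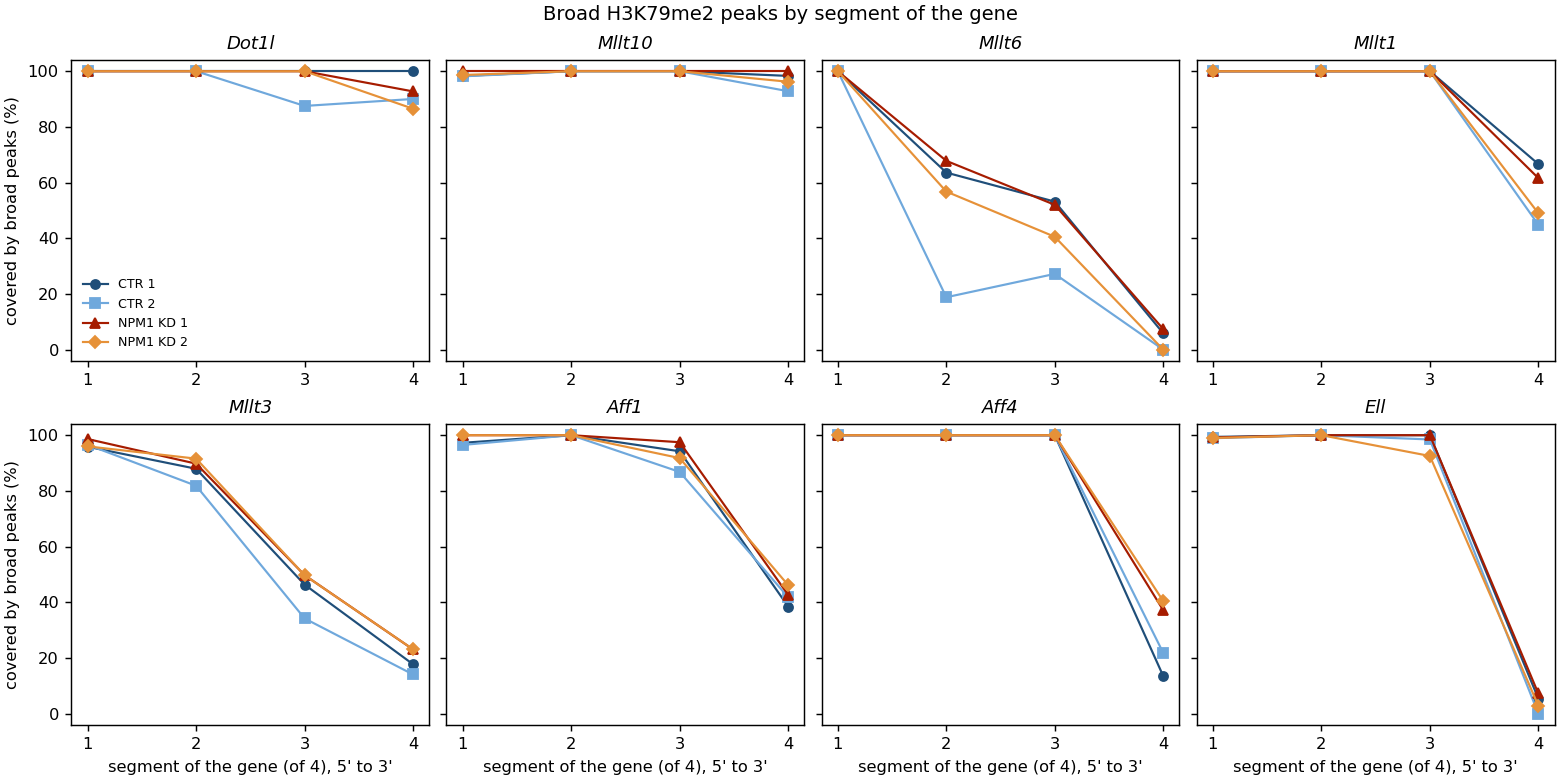
Percent of each of 4 equal segments of the gene, from the first protein-coding transcript start to the 3′ end, that lies under broad peaks, with 1 line per library. All 8 marked genes start at 95.8% or more. Mllt6 and Ell fall to 7.38% or less in the last segment, and Dot1l and Mllt10 stay at 86.5% or more. The last Dot1l segment lies partly under a peak that also covers the Sf3a2 start.

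Over the 9 genes together, the mean covered share was 66.8% and 62.7% in CTR and 68.4% and 66.1% in NPM1 KD. The mean difference was 2.55 percentage points, with overlapping groups, and lay between 0.491 without CTR 2 and 4.601 without CTR 1. Between libraries of the same number it was 1.65 and 3.44 percentage points. Over the 8 marked genes, without Ell2, it was 2.86 percentage points, beside 3.52 for protein-coding genes with a broad peak in all 4 libraries. Within 3 kb on either side of the start the order was the opposite, with 4.14 over the 9 genes and 2.59 over those protein-coding genes. There too the groups overlapped, with 53.3% and 49.1% in CTR and 58.7% and 52.0% in NPM1 KD. The widest shift was at Aff1, from 23.4% and 3.13% in CTR to 44.3% and 16.9% in NPM1 KD. That window lies at its noncoding start, under short peaks of low fold. A test over this list was not made. Of the 8 genes fitted for covered length, 0 passed the threshold, against 5 of 18781 genes or 0.0266% (limma, adjusted p under 0.05, with 2476 genes at an unadjusted p under 0.05). Both NPM1 KD libraries were above both CTR libraries at 3 of these 8 genes (Mllt3, Aff1 and Aff4), against 38.7% of all genes fitted, and below at 0, against 3.14%. Among the protein-coding genes fitted, these shares were 46.7% and 2.89%. The median log2 change was 0.04 over the 8 genes, 0.06 over all genes and 0.08 over protein-coding genes. For the strongest fold, 0 of the 8 genes passed, against 24 of 17231 (0.139%, with 740 or 4.29% at an unadjusted p under 0.05). Both NPM1 KD libraries were below both CTR libraries at 2 of the 8 (Dot1l and Ell), against 28.9%, and above at 0, against 10.0%. The median log2 change was -0.13 over the 8 genes and -0.09 over all. For the length of the domain over the gene start, 5 of the 9 genes could be fitted and 0 passed, against 257 of 8556 (3.00%, with 1023 at an unadjusted p under 0.05). In this measure NPM1 KD was above CTR without overlap at 2 of the 5 genes (Mllt10 and Aff4), against 43.5% of all genes fitted, and below CTR at 0, against 4.60%.

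Of 12 further genes of the pathway, 9 had a broad peak in all 4 libraries and 3 had none in any: Aff2 and Aff3, the other AFF family genes, and Ell3, the remaining ELL family gene. Ccnt2, a cyclin T partner of CDK9, had the highest covered share in CTR (99.8% and 98.4%), and Eaf2, an ELL-associated factor gene, the lowest of the marked ones (13.2% and 13.3%, against 15.9% and 17.4% in NPM1 KD). The gene of the kinase itself, Cdk9, those of its cyclins, Ccnt1 and Ccnt2, the MLL gene Kmt2a and its partner gene Men1, the YEATS genes Yeats2 and Yeats4, and Eaf1 were all among the 9. None of the 9 passed the test for covered length, with a smallest adjusted p of 0.30 at Eaf2 (limma), against 0.0266% of all genes fitted. For the fold none passed either, with a smallest adjusted p of 0.779 (limma), against 0.139%. For the start-site domain length 5 could be fitted and 0 passed, with a smallest adjusted p of 0.275 (limma), against 3.00%. The covered length was higher in both NPM1 KD libraries at 6 of the 9 genes and the fold lower in both at 4 of the 9. The backgrounds were 38.7% and 28.9% over all genes fitted, and 46.7% and 28.0% over protein-coding genes. In the AFF and ELL families, the mark was thus present on Aff1, Aff4 and Ell and was not called on Aff2, Aff3, Ell2 and Ell3.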

How the data were processed

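H3K79me2 ChIP-seq peak lists of 4 N2a libraries (CTR 1 and 2, NPM1 KD 1 and 2) were used, a narrow and a broad list for each. The pooled inputs came without lists and entered no comparison. Per the labels and the study's methods, the authors aligned paired-end reads to mm10 (GRCm38) with Bowtie2 2.3.4.1, kept reads of higher mapping quality and called peaks per library with MACS2 (2.2.6 in the submitters' processing notes). The deposited fold is a ratio of pileup to background, taken at the summit for narrow peaks and as an average for broad ones. The −log10 p and −log10 q are deposited as MACS2 gave them, and the deposited score is 10 times that q value, rounded down. The extent of called peaks depends on sequencing depth.

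Pileups were recovered from fold and p at 1 background per library, and 97.6% to 99.7% of narrow summits came out whole (within 0.02). Covered length, as log2(covered bp + 1000) over windows with a broad peak in at least 1 library, the log2 of the highest narrow fold and the log2 of the start-site domain length were each compared with limma 3.58.1 in R 4.3.3 over all genes, with Benjamini-Hochberg adjustment and a threshold of 0.05. These test called peaks and not read counts. The fits were tested on simulated data. Intervals, promoters and figures were made with Python 3.11.15, numpy 2.4.6, pandas 2.3.3, scipy 1.17.1 and matplotlib 3.10.9. The genes, the lists and the rule for the genes most like Dot1l were chosen with earlier results of these data known. All 9 genes are named with their values, and of the 12 further pathway genes those without a common broad peak or with the highest or lowest covered share in CTR. Alternatives were other lists, thresholds, windows, pseudocounts and filters, a replicate block, and leaving out each library. A further gene of the cell type marker list is not reported here. The ranges of height and the window from the first coding start were chosen after the values were seen.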

Additional observations from a re-analysis of the deposited data

How the results depend on the processing

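A broad peak in both libraries of each group was found over 8 of the 9 genes under every alternative tried (narrow lists, peaks whose −log10 q was 5 or more, most of the peak in the window, gene body only). The mean difference in covered share over the 9 genes, 2.55 percentage points, lay between 1.86 and 4.14 under other lists, thresholds and windows, and between 0.491 and 4.601 when a library was left out, lowest without CTR 2 and highest without CTR 1. Of 232 recomputed log2 changes of single genes, none passed the threshold, and 28 changed sign while smaller than their standard error in at least 1 of the 2 fits compared. For Dot1l the log2 change of the fold ran from -0.62 to -0.26 over the 11 alternatives. Both NPM1 KD folds lay below both CTR folds, so leaving out a library could not turn its sign. Neither the restriction to protein-coding genes nor the replicate block alters the estimate itself. The common sign is therefore largely fixed by the main values and adds little to them.

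The number of genes called over the genome depended on the processing. For covered length it was 5, and 1 over protein-coding genes, 0 with the narrow lists, 0 with a peak required in all 4 libraries, 0 with the replicate block, 0 to 0 when a library was left out, 83 when the −log10 q had to be 5 or more, 22 with a pseudocount of 200 bp, 81 over gene bodies and 18 without a filter, where most residual variances were 0 and the fit is unreliable. For the strongest fold it was 24, and 7 over protein-coding genes, 51 with the replicate block, 40 to 562 when a library was left out, 73 with the broad lists, 39 after centring on the median and 14 with the summit inside the window. For the start-site domain it was 257, and 121 over protein-coding genes, 0 with the replicate block and 0 when any library was left out. Each replicate was a passage and transfection batch of its own, and the sources do not say whether CTR and NPM1 KD libraries of the same number shared one, so that the block was kept as an alternative. It changed no call among the 9 genes. Libraries of the same number deviated from the group mean with correlations of 0.19, 0.21 and -0.05 in the 3 measures. The cause of these shifts was not tested. Where a library was left out, the lone library of its group was assumed to vary like the others.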
